A study of Mus musculus with 28 samples.

Results

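Glycolysis converts glucose to pyruvate in the cytosol and yields ATP without oxygen. Hexokinases trap glucose in the cell as glucose 6-phosphate, phosphofructokinase makes the committed step, and pyruvate kinase releases pyruvate. Lactate dehydrogenase reduces pyruvate to lactate and so returns the NAD that an earlier step needs. Several steps have isozymes from separate genes, and many of these genes are known targets of the hypoxia-inducible factor HIF and of Myc.

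The members described here are 10 genes, chosen by name, of the 13519 genes counted. They are the hexokinases *Hk1* and *Hk2*, the phosphofructokinases *Pfkl* and *Pfkp*, the aldolase *Aldoa*, the triosephosphate isomerase *Tpi1*, the phosphoglycerate kinase *Pgk1*, the pyruvate kinase *Pkm* and the lactate dehydrogenases *Ldha* and *Ldhb*. Each was found in the count table by its Ensembl identifier, and none was lost to a filter on low counts. The lowest count of any member in any sample was 182, for *Ldhb*.

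Counts came from bulk RNA sequencing of 28 samples of colon epithelium organoids of C57BL/6N mice. All organoids carried VillinCreERT2, a tamoxifen-activated Cre recombinase under a promoter of the intestinal epithelium, and the *Apc* flox/flox alleles. AC organoids carried nothing further, PAC organoids also *Trp53* LSL-R172H/+, BAC organoids also *Braf* floxV600E/+, and BPAC organoids both. Each culture was treated for 24 hours with ethanol (EtOH) as the control or with 3.5 µM 4-hydroxytamoxifen (4-HT), which activates Cre, and RNA was isolated 3 days later. The labels name 1 donor mouse for AC and 2 for each other genotype, and 2 cultures per donor, called duplicates 1 and 2. One 4-HT sample of BAC donor 1 has no duplicate number in its label and was taken as duplicate 1, since the other 4-HT sample of that donor is numbered 2. The study describes 2 donor mice for each genotype, with clones taken at separate passages. For AC this differs from the 1 donor that the labels name. The labels do not tie the duplicate numbers to passages. Each treatment thus had 2 samples of AC and 4 of every other genotype. Cultures of 1 donor are not separate animals, so P values measure the spread between cultures as well as between mice, and AC rests on 1 mouse. Since bulk RNA was counted, a change in the RNA per cell cannot be told apart from a change in the mix of cells.

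Total counts per sample ranged from 20577276 to 40068718. The 4-HT-treated duplicate 1 samples of BAC and BPAC were the deepest, from 37438687 to 40068718. The labelled tissue was checked with 9 epithelial markers, of which *Epcam* was counted at 1510 to 3130 CPM (counts relative to the TMM-scaled total of the sample) and *Krt8* at 5820 to 11800. Of 12 markers of mesenchymal, immune and endothelial cells, 3 were in the table (*Cd68*, *Cd3e* and *Pecam1*), and their summed level was 2.41 to 6.50 CPM in all samples. *Trp53* itself changed with 4-HT by 1.51 in PAC and 1.84 in BPAC on the log2 scale, against 0.74 in AC and 0.97 in BAC. Both 4-HT-treated PAC samples of duplicate 1 held *Xist* (25.2 and 22 CPM) and Y-linked transcripts (55.0 and 53.5 CPM), whereas the EtOH-treated samples of the same donors held mainly one or the other. These 2 samples were also the closest pair of all, with a root mean square log2 difference of 0.204 against 0.346 for the next pair. They do not stand for separate donors. With both PAC cultures of duplicate 1 left out, the count of all genes past the threshold in the 4-HT change of PAC was 48 in place of 3166 (edgeR, adjusted P of 0.01), and 0 of 10 members passed. In that fit, with 2 PAC cultures left, the members' log2 changes in PAC were between -0.79 (*Pfkp*) and about 0 (*Pkm*). With the culture as a block besides, *Pfkp* alone passed (6.73% of all genes in either direction).

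The positions are those of the reference annotation of GRCm38, and all members are protein-coding genes. *Hk2* (ENSMUSG00000000628, chromosome 6, 82725025 to 82774454), *Tpi1* (ENSMUSG00000023456, 124810586 to 124814296) and *Ldhb* (ENSMUSG00000030246, 142490249 to 142507957) lie on the minus strand of chromosome 6. *Ldha* (ENSMUSG00000063229, 46841475 to 46855627, plus strand) and *Aldoa* (ENSMUSG00000030695, 126795234 to 126800751, minus strand) lie on chromosome 7. *Hk1* (ENSMUSG00000037012, 62268855 to 62379908) and *Pfkl* (ENSMUSG00000020277, 77986947 to 78010083) lie on the minus strand of chromosome 10. *Pfkp* (ENSMUSG00000021196, minus strand) spans 6579768 to 6648777 of chromosome 13, and *Pkm* (ENSMUSG00000032294, plus strand) spans 59656368 to 59679375 of chromosome 9. *Pgk1* (ENSMUSG00000062070) is X-linked, from 106187100 to 106203699 on the plus strand.

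Promoters are shown because 8 members were called higher and *Ldhb* lower with the *Braf* allele in the level with 4-HT. The letters ACGTG are a form of the core of the site that HIF binds, and CACGTG, a site of Myc and related factors, contains them. Both were searched on both strands in the 250 bases before each RefSeq start (build GRCm38.p6). GCGTG, the other form of the HIF core, was not searched. Of the 15 starts of the 10 members, 6 held ACGTG and 1 held CACGTG, against 16.6% and 6.02% of all 32851 starts. The windows of 2 of the 3 *Aldoa* starts overlap and share their 1 match, which is counted at both. The members with ACGTG were *Hk2*, *Ldha*, *Aldoa*, *Pkm* and *Pgk1*. Of these, *Hk2* was not called in the level with 4-HT. *Pfkl*, *Pfkp*, *Tpi1* and *Hk1*, which were called higher, held no ACGTG, and neither did *Ldhb*. The 100 bases before the first *Ldha* start (chr7:46845704-46845803, plus strand), the *Hk2* start (chr6:82774455-82774554, minus strand) and the *Ldhb* start (chr6:142507958-142508057, minus strand) are given 5′ to 3′ on the strand of the gene, with ACGTG or its reverse complement in capitals.
*Ldha*: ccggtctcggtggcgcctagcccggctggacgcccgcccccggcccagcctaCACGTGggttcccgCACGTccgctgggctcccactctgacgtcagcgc
*Hk2*: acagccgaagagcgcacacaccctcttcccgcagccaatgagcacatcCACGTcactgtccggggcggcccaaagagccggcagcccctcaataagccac
*Ldhb*: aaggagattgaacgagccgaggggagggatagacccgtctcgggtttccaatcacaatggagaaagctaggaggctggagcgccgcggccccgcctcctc
The *Ldha* stretch holds 3 matches, of which 2 are the strands of the CACGTG, the *Hk2* stretch holds 1, and the *Ldhb* stretch holds none. A match describes these letters only, and binding was not measured.

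Per kilobase of the principal coding transcript, *Ldha* was the most abundant member, with a median of 2153 CPM per kilobase over the 28 samples. *Aldoa* (1366), *Pkm* (1086) and *Tpi1* (716) followed, then *Pgk1* (233). The first-step and committed-step enzymes were lower, with medians of 116 for *Pfkl*, 91.3 for *Pfkp*, 80.8 for *Hk1* and 17.2 for *Hk2*, and *Ldhb* was lowest at 9.25. Most neighbours in this order were separated in nearly every sample. *Aldoa* exceeded *Pkm* in 22 of 28 samples, *Pfkl* exceeded *Pfkp* in 25 and *Hk2* exceeded *Ldhb* in 21, whereas *Pfkp* and *Hk1* were not separated, with *Pfkp* higher in 16. With all annotated exons of a gene as its length, *Pfkp* and *Hk1* changed places. Near-identical transcripts of other genes could take reads of *Pgk1*, *Pkm*, *Ldha* and *Ldhb*. The 2 copies of *Ldha* and the 1 of *Ldhb*, all pseudogenes, were not among the genes counted. The copies in the table, *Pgk1-rs7* and *Gm6560*, held counts equal to 0.193% of those of *Pgk1* and 0.126% of those of *Pkm*. The isoforms of *Pkm*, of which M1 and M2 are known, cannot be told apart in counts per gene.

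**Figure D1:**
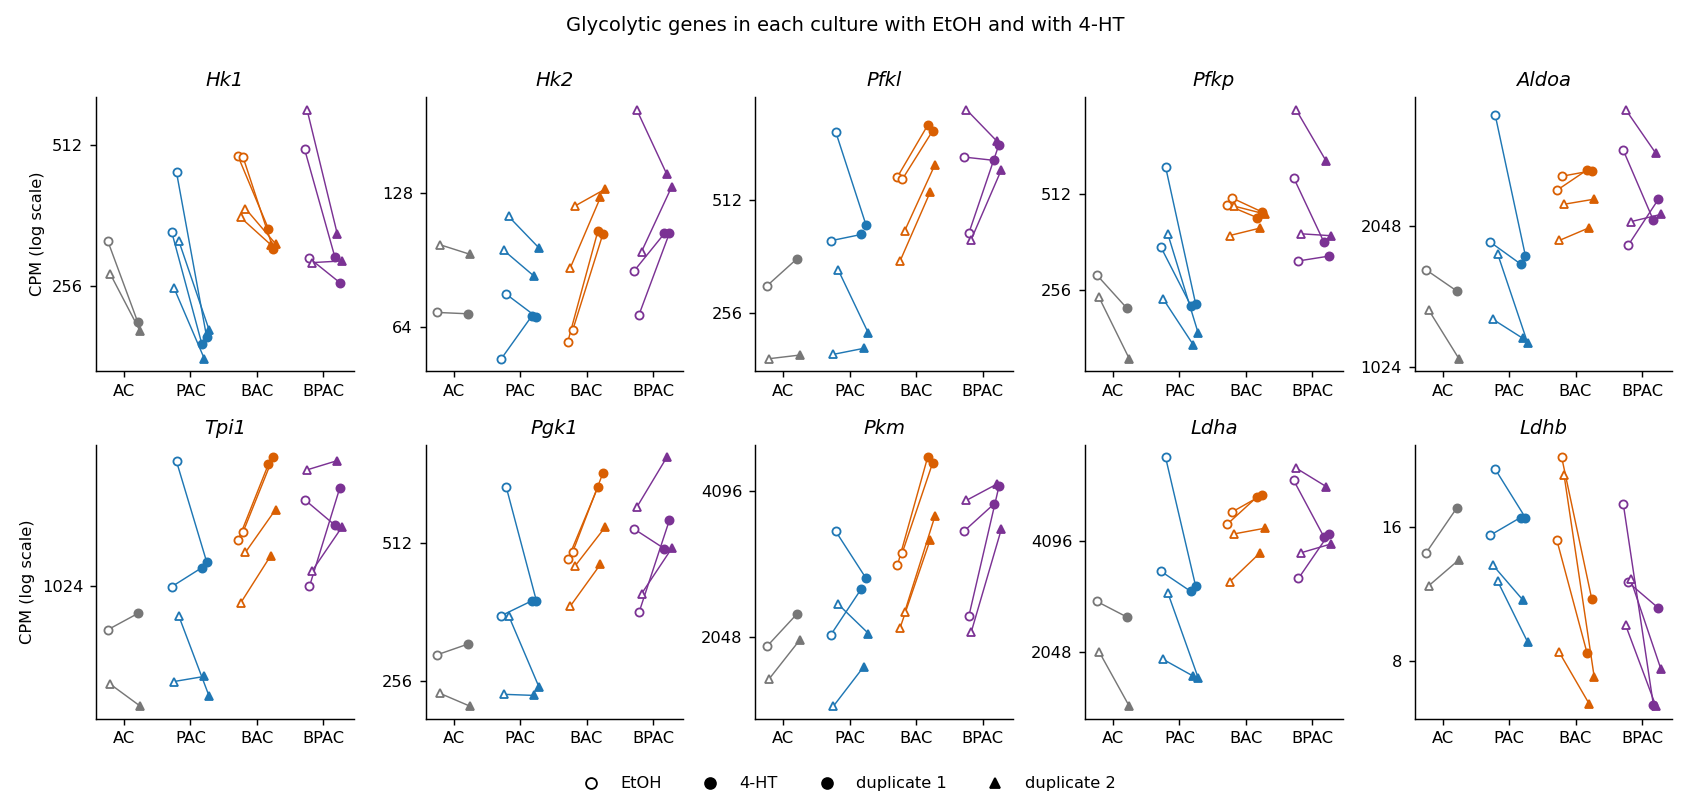
Level of each glycolytic gene in every sample, in TMM-normalised CPM on a log scale, for the 4 genotypes. Open symbols are EtOH and filled symbols 4-HT, a line joins the samples of 1 culture, and circles and triangles are duplicates 1 and 2. With 4-HT, the BAC and BPAC samples lie above all AC and PAC samples for every gene but *Ldhb*, while with EtOH the genotypes overlap.

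The levels differed between cultures before Cre was activated. With EtOH, the highest of the 14 cultures exceeded the lowest 2.41-fold for *Hk1* and 4.58-fold for *Pfkl*, and the other members lay between. The same cultures stood at the ends for most members. BPAC donor 1 was among the 3 highest for 8 members in duplicate 1 and for 9 in duplicate 2, and PAC donor 2 duplicate 1 for 8. AC duplicate 1 was among the 3 lowest for 7 members, AC duplicate 2 for 9 and PAC donor 1 duplicate 2 for 8. For *Ldha*, the lactate-forming isozyme, the EtOH level was 6922 CPM in PAC donor 2 duplicate 1 and 1956 CPM in PAC donor 1 duplicate 2, of the same genotype. The duplicate number moved with the level as well. With EtOH *Hk2* was higher in duplicate 2 in 7 of 7 donors, while *Pkm*, *Pfkl*, *Hk1* and *Ldhb* were higher in duplicate 1 in 6 of 7.

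The summed level of 13 HIF target genes outside glycolysis also differed between the cultures with EtOH. It was 2802 CPM in the EtOH sample of BPAC donor 1 duplicate 2 and 2479 CPM in that of PAC donor 2 duplicate 1, against 675 to 1057 CPM in the EtOH samples of AC and of PAC donor 1. With EtOH it was 1991 CPM in BPAC donor 1 duplicate 1 and 1082 to 1693 CPM in BAC. It was 1088 and 1261 CPM in BPAC donor 2 and 1035 CPM in PAC donor 2 duplicate 2. Its association with the members' levels and its part in the differences between cultures were not tested.

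The first question was whether 4-HT, which deletes *Apc* and activates the other alleles, changed the members within a genotype. Under the culture-to-culture spread, few of them passed edgeR's quasi-likelihood test at a Benjamini-Hochberg adjusted P of 0.01. In AC, 0 of 10 members passed, with 7.25% of all genes past the threshold in either direction (0.0666% without AC duplicate 1 and 0.178% without AC duplicate 2). In PAC, 2 of 10 fell, *Hk1* and *Pfkp*, against 12.2% of all genes that fell. In BAC, 1 of 10 fell, *Ldhb*, against 21.5%. In BPAC, 0 of 10 passed, against 45.0% of all genes in either direction. At an unadjusted P of 0.05, 4 members were past it in PAC, 3 in BAC, 2 in BPAC and 0 in AC, beside 45.6%, 59.4%, 60.9% and 30.8% of all genes. The median log2 change of the members in AC, PAC, BAC and BPAC was -0.02, -0.39, 0.28 and 0.01, beside medians of all genes of 0.01, -0.03, -0.04 and -0.04. The median in PAC was -0.14 without PAC donor 2 duplicate 1, -0.01 without PAC donor 2, -0.57 without PAC donor 1 duplicate 1 and -0.72 without PAC donor 1, and that in BPAC was -0.27 without BPAC donor 2 and 0.34 without BPAC donor 1. With 1 culture or donor left out, the median ranged from -0.12 to 0.03 in AC and from 0.23 to 0.33 in BAC. With library size alone in place of TMM the medians of all genes moved to 0.23, 0.20, 0.13 and 0.18, and those of the members to 0.20, -0.16, 0.45 and 0.23. By limma-voom and DESeq2, 0 members passed in AC (7.34% and 11.7% of all genes) and BPAC (44.9% and 48.2%) as well.

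The EtOH and 4-HT samples of a culture are labelled as of 1 donor and deviated together from their group means. Both PAC cultures of duplicate 1 did so too, but PAC donor 1 duplicate 1 was closer to another culture (r = 0.26 against 0.245) and PAC donor 2 duplicate 1 nearly as close (0.44 against 0.459), and the transcripts described above put their pairing in doubt. With the culture as a replicate block, 4 members fell in PAC (18.4% of all genes fell), namely *Hk1*, *Pfkp*, *Aldoa* and *Ldha*. In BAC, *Hk2*, *Pfkl* and *Pkm* rose and *Ldhb* fell (51.9% of all genes). In BPAC, *Pkm* rose and *Hk1* and *Ldhb* fell (54.4%). In AC no member passed with the block (16.4% of all genes). With the counts of each donor summed and the donor as the block, 2 members passed in PAC, *Hk1* and *Pfkp*, beside 25.9% of all genes in either direction. In BAC 2 passed in that fit, *Pkm* and *Ldhb* (43.7%), and in AC and BPAC 0 passed (8.59% and 47.4%).

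*Hk1*, the hexokinase most tissues express, was lower with 4-HT in 13 of the 14 cultures. In AC its level went from 321 and 273 CPM with EtOH to 215 and 205 CPM with 4-HT in duplicates 1 and 2. In PAC donor 1 it went from 335 to 193 CPM and from 254 to 179.5 CPM, and in PAC donor 2 from 448.5 to 199 CPM and from 320 to 207 CPM. All 4 PAC samples with 4-HT lay below all 4 with EtOH. In BAC the EtOH samples held 359 to 485 CPM and the 4-HT samples 308 to 340 CPM, again without overlap, while in BPAC the ranges were 287.8 to 611 and 261 to 332 CPM and overlapped. The log2 change was -0.80 ± 0.18 (SE) in PAC (adjusted P = 0.00156 by edgeR's quasi-likelihood test), -0.52 ± 0.18 in BPAC (0.0177), -0.41 ± 0.18 in BAC (0.0584) and -0.50 ± 0.26 in AC (0.195). Blocking on culture gave adjusted P values by edgeR of 0.000213 in PAC, 0.00735 in BPAC, 0.0147 in BAC and 0.0582 in AC. In BPAC the block without BPAC donor 1 duplicate 2 gave -0.31 (adjusted P = 0.0629 by edgeR). Without both PAC cultures of duplicate 1 the change in PAC was -0.57 (adjusted P = 0.181 by edgeR, 0.0370 with the block).

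*Hk2*, the hexokinase known for its induction in tumors, behaved differently. In BAC it went from 59.3, 86.7, 62.9 and 119.5 CPM with EtOH to 105, 125, 103 and 130 CPM with 4-HT, higher in each of the 4 cultures. In PAC 3 of 4 cultures and in AC both were lower with 4-HT, and in BPAC 3 of 4 were higher. The log2 change in BAC was 0.50 ± 0.27 (adjusted P = 0.117 by edgeR), and 0.55 (0.00361) with the replicate block. In BPAC it was 0.11 ± 0.27 (adjusted P = 0.743 by edgeR). There, BPAC donor 1 duplicate 2 went from 196.5 to 141 CPM while the other 3 cultures were higher with 4-HT. Without that culture, left out after the values were seen, *Hk2* passed in BPAC with the replicate block (52.1% of all genes passed). The fit then held only BPAC cultures in which *Hk2* was higher with 4-HT.

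The 2 phosphofructokinases parted in the same way. *Pfkp*, the platelet-type isozyme, was lower with 4-HT in 12 of the 14 cultures. In PAC it went from 350, 241, 621 and 382 CPM with EtOH to 229, 173, 232 and 188.5 CPM with 4-HT, with no overlap. The log2 change there was -0.95 ± 0.27 (adjusted P = 0.00829 by edgeR, 8.4e-05 with the block). Without both PAC cultures of duplicate 1 it was -0.79 (adjusted P = 0.196 by edgeR, 0.00758 with the block). *Pfkl*, the liver-type isozyme, was higher with 4-HT in 10 cultures, among them all 4 of BAC, which went from 589, 351, 580 and 424 CPM to 807, 536, 779 and 634 CPM. Its change in BAC was 0.50 ± 0.33 (adjusted P = 0.197 by edgeR), and 0.52 (0.00834) with the block.

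In the middle of the pathway, *Aldoa*, which splits fructose 1,6-bisphosphate, *Tpi1*, which interconverts the resulting trioses, and *Pgk1*, which makes the first ATP, passed in no genotype. Their log2 changes in BAC were 0.08 ± 0.24, 0.38 ± 0.24 and 0.44 ± 0.25, and in PAC -0.56 ± 0.24, -0.28 ± 0.24 and -0.38 ± 0.25. *Aldoa* fell in PAC with the replicate block (adjusted P = 0.00782 by edgeR), not without both PAC cultures of duplicate 1 (0.109 with the block). *Tpi1* and *Pgk1* were higher with 4-HT in all 4 cultures of BAC. With the block their adjusted P values in BAC were 0.0149 and 0.0116 by edgeR, and both passed with the block when both PAC cultures of duplicate 1 were left out of the fit (0.00870 and 0.00408).

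*Pkm*, which makes pyruvate and the last ATP of the pathway, was higher with 4-HT in 12 of the 14 cultures. In BAC it went from 2883, 2137, 3058 and 2311 CPM to 4808, 3247, 4669 and 3636 CPM, without overlap. In BPAC it went from 3385, 3917, 2261 and 2099 CPM to 3854, 4228, 4189 and 3422 CPM. Every BPAC culture was higher with 4-HT, and the 2 of donor 2 gained more than the 2 of donor 1. The log2 change was 0.65 ± 0.21 in BAC (adjusted P = 0.0118 by edgeR, 0.000246 with the block) and 0.43 ± 0.21 in BPAC (0.0886, and 0.00329 with the block). In AC it was 0.24 ± 0.30 and in PAC -0.03 ± 0.21.

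**Figure D2:**
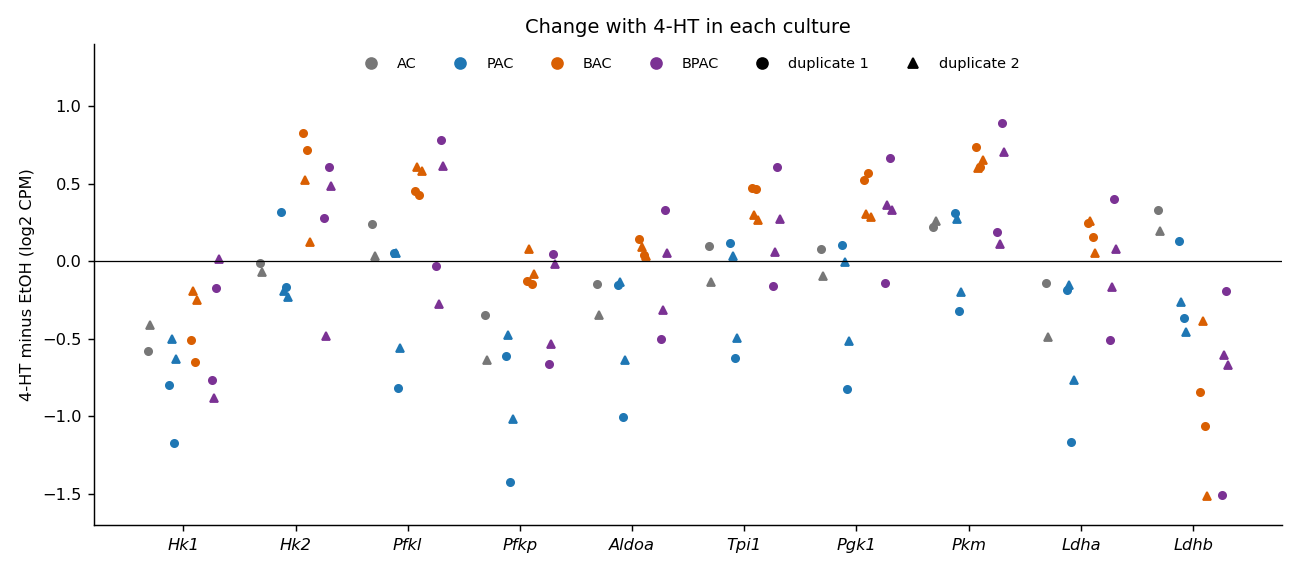
Change of each glycolytic gene from EtOH to 4-HT in every culture, in log2 CPM with a prior count of 2, by genotype (color) and duplicate (circle or triangle). *Hk1* lies below 0 in 13 of 14 cultures and *Pfkp* in 12, *Pkm* lies above 0 in 12, and *Ldhb* lies below 0 in all 8 BAC and BPAC cultures.

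*Ldha* was lower with 4-HT in all AC and PAC cultures and higher in all BAC cultures. In PAC it went from 3395, 1956, 6922 and 2959 CPM to 2989, 1761, 3086 and 1744 CPM, and the ranges overlapped. The log2 change in PAC was -0.67 ± 0.30 (adjusted P = 0.0809 by edgeR). It passed with the block (0.00618), but not without both PAC cultures of duplicate 1 (0.0896 with the block). In BAC it was 0.18 ± 0.30 and in BPAC -0.09 ± 0.30.

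*Ldhb*, whose subunit favors the conversion of lactate to pyruvate, was lower with 4-HT in every culture with the *Braf* allele. In BAC it went from 15.0, 8.35, 23.1 and 21.02 CPM with EtOH to 8.33, 6.37, 11 and 7.33 CPM with 4-HT. In BPAC it went from 18.1, 9.61, 12.03 and 12.2 CPM to 6.33, 6.31, 10.5 and 7.67 CPM. In AC both cultures were higher, 17.7 and 13.5 CPM after 14.04 and 11.8, and in PAC 1 culture was higher and 3 were lower. The log2 change was -1.02 ± 0.28 in BAC (adjusted P = 0.00337 by edgeR, 0.000237 with the block) and -0.75 ± 0.28 in BPAC (0.0255, and 0.00214 with the block). It was 0.27 ± 0.39 in AC and -0.22 ± 0.28 in PAC. In BAC it passed in 29 of 39 fits, with adjusted P values up to 0.170. The call was lost with limma-voom, library size alone, BAC fitted alone, donors summed without a block, either duplicate alone, without BAC donor 2 and without any one of 3 of the 4 BAC cultures.

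Within each isozyme pair the ratio of the 2 genes does not depend on the scaling between samples. Per kilobase of transcript, *Hk2* made up 7.87% to 20.7% of the 2 hexokinases with EtOH and 17.8% to 24.5% with 4-HT, and its share was higher with 4-HT in all 14 cultures. *Pfkp* made up 40.5% to 53.0% of the 2 phosphofructokinases with EtOH and 29.1% to 44.2% with 4-HT, and its share was lower with 4-HT in all 14 cultures. The mean log2 change of the ratio was 0.73 ± 0.18 (SD, n = 7 donors) for *Hk2* to *Hk1* and -0.58 ± 0.08 for *Pfkp* to *Pfkl*. In two-sided exact sign-flip tests over the 7 donors both gave P = 0.0156, the smallest value that 7 donors allow, and 0.0234 after adjustment over the 3 pairs. The ratios were compared after the values had been seen. Other pairs of genes were not compared in this way, so how common such shifts were is not known. The *Hk2* share differed between duplicates, and the mean log2 change was 1.03 in duplicate 1 alone and 0.43 in duplicate 2 alone, each higher in 7 of 7 donors. Without both PAC cultures of duplicate 1 it was 0.63. For *Pfkp* to *Pfkl* it was -0.63 and -0.54.

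*Ldhb* made up 0.201% to 0.903% of the 2 lactate dehydrogenases with EtOH. Its mean EtOH share was already lower in the genotypes with the *Braf* allele. The means were AC 0.72%, PAC 0.62%, BAC 0.52% and BPAC 0.39%. The EtOH ranges of PAC (0.423% to 0.903%) and BAC (0.356% to 0.660%) overlapped, and the EtOH difference in share was not tested. With 4-HT *Ldhb* made up 0.930% and 1.24% in AC and 0.678% to 0.836% in PAC, but 0.208% to 0.272% in BAC and 0.148% to 0.332% in BPAC. All 8 samples with the *Braf* allele lay below all 6 without it. The ratio changed by -0.91 ± 0.33 (SD, n = 4 donors) with the allele and by 0.41 ± 0.27 (n = 3 donors) without it. An exact permutation test over the 35 splits of the donors gave P = 0.0286, the smallest it can give, and 0.0857 adjusted over the 3 pairs. The same difference was 0.19 for *Hk2* to *Hk1* (exact permutation P = 0.229) and 0.01 for *Pfkp* to *Pfkl* (0.914). These permutation tests take the 2 PAC donors as separate, which their 4-HT samples of duplicate 1 put in doubt. They were not run without both PAC cultures of duplicate 1. Over all 7 donors the *Ldhb* to *Ldha* ratio changed by -0.34 ± 0.76 (exact sign-flip P = 0.234).

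**Figure D3:**
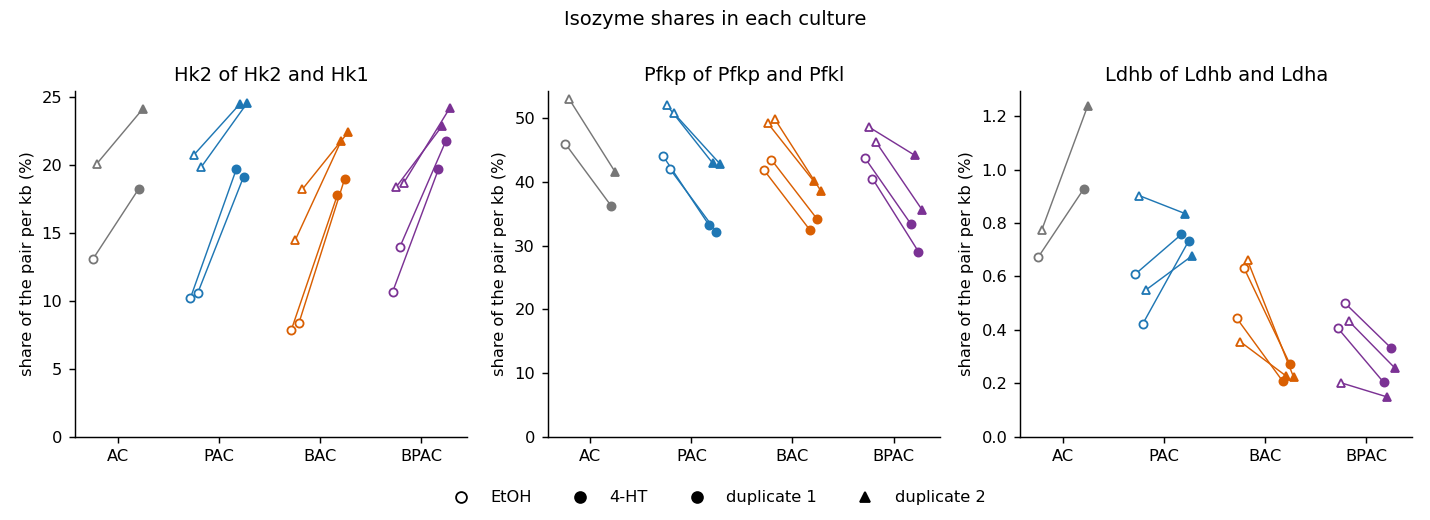
Share of the first-named gene in each isozyme pair, in percent of the pair per kilobase of transcript, in every culture with EtOH (open) and 4-HT (filled), with a line per culture. The *Hk2* share is higher and the *Pfkp* share lower with 4-HT in 14 of 14 cultures, and the *Ldhb* share with 4-HT is lower in all samples that carry the *Braf* allele.

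The second question was whether the *Braf* allele altered the response, tested as the average change in the 2 genotypes that carry it (BAC, BPAC) less the average in the 2 that do not (AC, PAC). No member passed by edgeR, limma-voom or DESeq2 (0 of 10, against 6.61% of all genes in either direction by edgeR), and 1 had an unadjusted P under 0.05 (28.5% of all genes had). This one was *Ldhb*, with -0.91 ± 0.31 (adjusted P = 0.0486 by edgeR). The other 9 had positive differences, from 0.18 ± 0.20 for *Hk1* to 0.55 ± 0.27 for *Pgk1* (adjusted P = 0.601 and 0.186 by edgeR). The median of the members was 0.43, beside -0.01 for all genes, and 0.25 to 0.61 with 1 culture or donor left out (lowest without PAC donor 2). With the replicate block *Ldhb* passed (-0.87, adjusted P = 0.00516 by edgeR, with 7.48% of all genes past it in that direction), and without both PAC cultures of duplicate 1 it did not (0.0173 with the block). With donors summed and the donor as the block it did not pass either (-0.83, adjusted P = 0.0251 by edgeR). With the block and without BPAC donor 1 duplicate 2, left out after the values were seen, *Hk2*, *Pkm* and *Ldhb* passed (17.3% of all genes in either direction). As means per donor, the change in all 4 donors with the allele lay above that in all 3 without it for 1 member, *Pgk1*, against 18.2% of all genes. It lay below for 1 member, *Ldhb*, against 17.1%.

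For the *Trp53* allele, the mean change of PAC and BPAC was set against that of AC and BAC. No member passed (0 of 10, against 0.0148% of all genes), and 0 had an unadjusted P under 0.05 by edgeR (1.04% of all genes had), or passed by limma-voom or DESeq2. The differences ranged from -0.44 ± 0.36 for *Pfkl* to -0.11 ± 0.31 for *Ldhb*, with a median of -0.25. The median was -0.08 without PAC donor 2, -0.11 without BPAC donor 1, -0.16 without PAC donor 2 duplicate 1 and -0.47 without the AC donor. Over all fits *Ldhb* ranged from -0.30 to 0.54 and *Hk1* from -0.36 to 0.02, so neither kept its sign.

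The third question was whether the levels themselves differed with the *Braf* allele. With 4-HT, 8 of 10 members were higher where the allele was present (15.6% of all genes were higher) and 1, *Ldhb*, was lower (14.6% were lower). The log2 differences of the 8 were 1.20 ± 0.27 for *Pfkl*, 1.12 ± 0.22 for *Pfkp*, 1.09 ± 0.24 for *Ldha*, 1.05 ± 0.20 for *Pgk1*, 0.87 ± 0.19 for *Tpi1*, 0.85 ± 0.17 for *Pkm*, 0.83 ± 0.19 for *Aldoa* and 0.60 ± 0.15 for *Hk1*. Their adjusted P values by edgeR ranged from 0.000214 to 0.00202. *Ldhb* differed by -0.85 ± 0.22 (0.00254), and *Hk2* by 0.57 ± 0.21 (0.0353), which did not pass. With the duplicate number as a covariate all 10 passed, *Hk2* included, and the share of all genes past the threshold in either direction was 40.0% in place of 30.2%. The median of the members was 0.86, beside 0.00 for all genes.

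In single samples the 2 sets did not overlap for 9 of 10 members, all higher with the allele, *Hk2* included, against 11.7% of all genes. *Pkm* lay between 3247 and 4808 CPM (median 4022) in the 8 samples with the allele and between 1782 and 2709 CPM (median 2188) in the 6 without. *Ldha* lay between 3799 and 5757 CPM (median 4354) with the allele and between 1460 and 3086 CPM (median 2155) without. For *Pfkl* the ranges were 536 to 807 CPM and 198 to 439 CPM, and for *Hk2*, the narrowest in fold terms next to *Tpi1*, 103 to 141 and 67.4 to 96.3 CPM. *Ldhb* overlapped, with 6.31 to 11 CPM with the allele and 8.795 to 17.7 CPM without. Within duplicate 1 and within duplicate 2, 9 members lay above without overlap (28.4% and 23.5% of all genes). *Ldhb* lay at 6.33 to 11 CPM with the allele and 16.8 to 17.7 CPM without in duplicate 1, and at 6.31 to 7.67 CPM and 8.795 to 13.5 CPM in duplicate 2.

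With EtOH, where Cre had not been activated, all 10 differences were positive, that of *Ldhb* included, but no member passed by edgeR, limma-voom or DESeq2 (0 of 10, against 0.0296% of all genes by edgeR). An unadjusted P under 0.05 was found for 8, beside 17.2% of all genes. The log2 differences were 0.42 ± 0.15 for *Hk1*, 0.72 ± 0.26 for *Pfkl*, 0.62 ± 0.22 for *Pfkp* and 0.58 ± 0.24 for *Ldha*, with a median over the members of 0.46 beside 0.02 for all genes, and 0.23 to 0.65 with 1 culture or donor left out (lowest without the AC donor). *Ldhb* differed by 0.06 ± 0.22. In single EtOH samples 0 of 10 members were without overlap, against 0.0740% of all genes. Within duplicate 2, 5 members (*Pfkl*, *Aldoa*, *Tpi1*, *Pgk1* and *Ldha*) already lay above without overlap (6.22% of all genes), and within duplicate 1, 0 did (5.16%). *Ldha* lay between 3171 and 6463 CPM with the allele and between 1956 and 6922 CPM without, the highest value being PAC donor 2 duplicate 1. Without both PAC cultures of duplicate 1 the median difference with EtOH was 0.69, and the lowest adjusted P of a member was 0.0191 by edgeR. On the log2 scale the difference in level with 4-HT is the sum of the difference with EtOH and the difference in change, and the difference with EtOH was the larger of the 2 for 6 of the 8 members called higher. For *Pfkl* the 2 were 0.72 and 0.47, for *Hk1* 0.42 and 0.18 and for *Ldha* 0.58 and 0.51, while *Pgk1* (0.49 and 0.55) and *Pkm* (0.42 and 0.43) had the larger part in the change. This order turned with the samples used. The medians over the members, with EtOH and in the change, were 0.46 and 0.43. They were 0.23 and 0.57 without the AC donor, 0.30 and 0.58 without PAC donor 1 and 0.27 and 0.61 without BPAC donor 1. In duplicate 1 alone they were 0.27 and 0.48. The difference with EtOH was the larger without PAC donor 2 (0.65 and 0.25), without BPAC donor 2 (0.62 and 0.29) and in duplicate 2 alone (0.75 and 0.38).

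**Figure D4:**
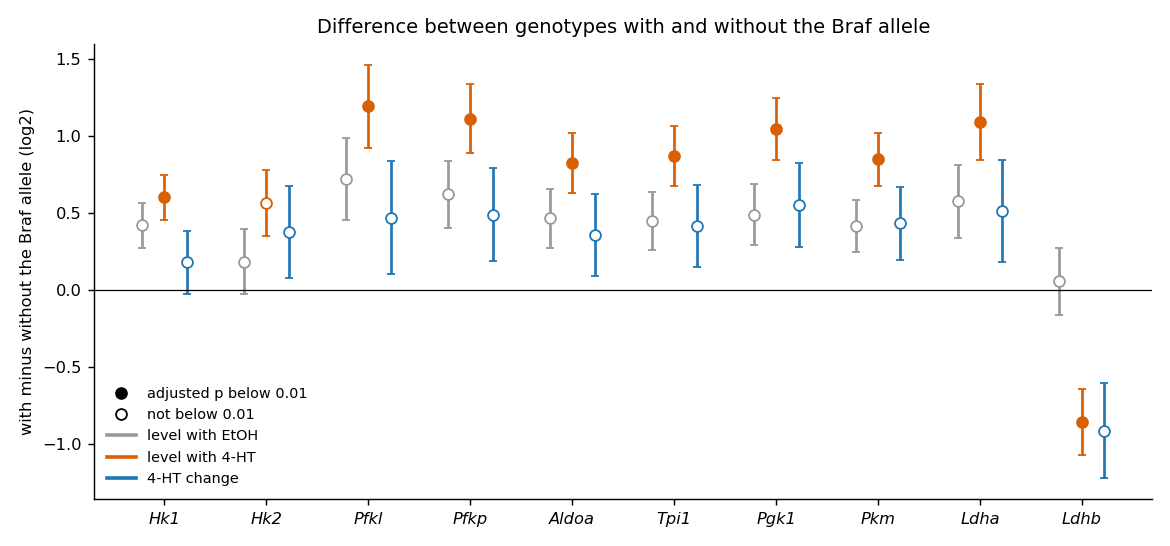
*Braf* allele carriers minus the other genotypes for each glycolytic gene, on the log2 scale with its standard error from edgeR, for the level with EtOH (gray), the level with 4-HT (orange) and the 4-HT change (blue). Filled points passed an adjusted P of 0.01. They are 9 of the 10 genes for the level with 4-HT and none for the others.

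The comparison of levels with 4-HT was affected by single samples of the 1 AC donor. Without AC duplicate 2, which was among the 3 lowest of 14 for 7 members, 4 members passed (*Pfkp*, *Pgk1*, *Pkm* and *Ldhb*; 20.4% of all genes in either direction), and without both AC cultures 7 passed (23.7%). With the counts of each donor summed 7 passed (27.4%). *Ldhb* did not pass without both PAC cultures of duplicate 1 (-0.63, adjusted P = 0.0242 by edgeR) and the other 8 did (29.6%). The deeper 4-HT samples of duplicate 1 were all of genotypes with the allele, and with all samples thinned to the smallest total 9 members passed as well (28.5%).

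Other enzymes of the pathway were counted for 15 of 18 genes on a list. In the level with 4-HT, 6 were higher with the *Braf* allele (15.6% of all genes) and 1 was lower (14.6%), with a median of 0.28. Among them were *Gpi1* (0.68), which isomerizes glucose 6-phosphate, *Gapdh* (0.80), which oxidizes glyceraldehyde 3-phosphate, *Pgam1* (1.00) and *Eno1* (0.95), which convert 3-phosphoglycerate to phosphoenolpyruvate. None of these 4 passed in the 4-HT change of any genotype, and none of the 15 in the *Braf* effect on the change. In BPAC 4 of the 15 fell and none rose (45.0% of all genes passed), among them *Hkdc1* (-2.67), *Eno3* (-2.05) and *Pklr* (-0.86), the last a pyruvate kinase known from liver.

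Of 9 measured transporters of glucose, lactate and pyruvate, 5 fell and none rose in each of PAC, BAC and BPAC, and none passed in AC. Of all genes 12.2% fell in PAC, 21.5% fell in BAC and 45.0% passed in either direction in BPAC. With both PAC cultures of duplicate 1 left out, no gene of the lists of transporters, other enzymes, HIF targets, proliferation or colonocyte markers passed in PAC, where 48 of 13519 genes passed. *Slc5a1*, the sodium-coupled glucose transporter of the brush border, fell most in BPAC (-1.78) and was the one transporter past the threshold in the *Braf* effect on the change (-1.16 ± 0.16, adjusted P = 4.6e-05 by edgeR). *Slc16a1*, which carries lactate, fell in PAC (-0.69, and -0.46 without those cultures, not past the threshold), BAC (-0.54) and BPAC (-0.58). *Slc2a1*, the basal glucose transporter, fell in PAC (-0.81, and -0.71 without those cultures, adjusted P = 0.0609 by edgeR), and was higher with the *Braf* allele in the level with 4-HT (0.83). *Slc16a3*, a lactate exporter and HIF target, was higher with the allele in that level (2.35), and its EtOH level differed by 1.94 (adjusted P = 0.171 by edgeR).

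HIF targets outside glycolysis were tested in the same comparisons. With 4-HT, 9 of 13 were higher with the *Braf* allele (15.6% of all genes) and none was lower, with a median of 1.15, and with EtOH none passed, with a median of 0.67. Their summed level with 4-HT was 1239 to 2504 CPM in the 8 samples with the allele and 576 to 991 CPM in the 6 without, and with EtOH it was 1082 to 2802 and 675 to 2479 CPM. In the 4-HT change 1 of 13 rose in each of PAC, BAC and BPAC. This was *Ddit4*, an inhibitor of mTORC1 signaling, with 1.29 in BPAC. One, *Higd1a*, fell in PAC (-1.12), and none passed in the *Braf* effect on the change. *Hif1a* itself was higher with the allele in the level with 4-HT (0.59, adjusted P = 0.0027 by edgeR). Proliferation and differentiation genes moved with 4-HT too. Of 10 proliferation markers 2, 8, 9 and 10 rose in AC, PAC, BAC and BPAC, and of 10 colonocyte markers 5, 8, 9 and 10 fell, beside 7.25%, 23.4%, 41.9% and 45.0% of all genes past the threshold in either direction. Their summed levels with 4-HT were 1661 to 1971 CPM for proliferation in BAC and BPAC against 1169 to 1390 CPM in AC and PAC, and 3663 to 8552 CPM against 6146 to 11380 CPM for the colonocyte markers. The part of HIF targets, proliferation and differentiation in the members' levels was not tested.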

How the data were processed

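RNA was sequenced in bulk from 28 organoid samples. Per the submitters' processing notes, reads were trimmed with Trimmomatic 0.39 and aligned with STAR 2.5.2b, and the build was GRCm38. The authors deposited raw counts per Ensembl gene, with no normalization, and the counting program is not given in the sources used here. The members and all gene lists were chosen with earlier results of these data known.

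The 13519 genes were fitted together in edgeR 4.0.16 (R 4.3.3) with TMM scaling, 8 groups of genotype and treatment, the quasi-likelihood test and Benjamini-Hochberg adjustment, at a threshold of 0.01. CPM were TMM-normalised, and log2 CPM used a prior count of 2. TMM factors were 0.885 to 0.970 with EtOH and 1.04 to 1.10 with 4-HT. The 2 samples of a culture are labelled as of 1 donor, which the transcripts of both PAC 4-HT samples of duplicate 1 put in doubt. Their deviations from the group means correlated at r = 0.245 to 0.532 in 14 of 14 cultures (0.245 in PAC donor 1 duplicate 1, against 0.26 with another culture), so the culture served as a replicate block in an alternative fit. Levels between genotypes cannot be blocked in this way. limma 3.58.1 (voom), DESeq2 1.42.0, other scalings, filters and left-out samples were alternatives. The isozyme ratios, the fits without both PAC cultures of duplicate 1 and those without BPAC donor 1 duplicate 2 were chosen after seeing the data.

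All 10 members are named. Of other lists, the genes with the largest rise and fall in BPAC and in the *Braf* effect on the change are named, with a few set genes, and *Hkdc1*, *Eno3*, *Pklr* and *Higd1a* were named after their values were seen. One gene that the rule would name is not reported here. Near-identical transcripts (at least 95% identity over 50% of the length) were searched with blastn 2.17.0. In simulated counts 200 of 13519 genes were changed in BPAC, with 1 spread for all genes and no pairing of cultures. There edgeR recovered 66% of genes changed by a log2 fold of 1 and 1% of those changed by 0.5. In the real BPAC comparison 45.0% of all genes passed, so these shares do not measure recovery there.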

Additional observations from a re-analysis of the deposited data

Results flagged for a closer look

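Among 90 sets of 4 values checked for a single distant value, 2 had one beyond Dixon's 95% critical value, and chance gives about 5%. The *Hk2* change with 4-HT in PAC donor 1 duplicate 1 was 0.3147 on the log2 scale, while the other 3 PAC cultures were lower with 4-HT (ratio 0.881). This culture is one of the 2 whose 4-HT samples held both *Xist* and Y-linked transcripts. The *Ldha* level with 4-HT in BPAC donor 1 duplicate 2 was 12.49 log2 CPM, above the other 3 BPAC samples (ratio 0.832), and the same sample had the highest HIF target sum of all 4-HT samples.

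For some genes every culture of one genotype moved up and every culture of another moved down. These pairwise differences between genotypes were not tested, and how often they occur over all genes was not computed. AC has 2 cultures of 1 mouse, so a shared sign is easily met there. Some changes lay near 0, as for *Hk2* in AC (-0.072 and -0.01) and *Aldoa* in BAC (0.036 to 0.145). The mean log2 change in AC minus that in BAC was -0.5892 for *Hk2*, -0.3248 for *Aldoa*, -0.4948 for *Ldha* and 1.213 for *Ldhb*. That in PAC minus that in BAC was -0.5615 for *Aldoa* and -0.7444 for *Ldha*. For *Ldhb* the change in AC minus that in BPAC was 1.003.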

How the results depend on the processing

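Counts of members past the threshold depended most on whether cultures were paired and on single libraries. Shares of all genes past the threshold in either direction are given in parentheses. In PAC, where 2 passed (23.4%), 4 passed with the replicate block (34.9%), also without BPAC donor 1 duplicate 2 (38.2%). With donors summed and donor as a block 2 passed (25.9%). Fits with 1 were limma-voom (23.7%), PAC alone (15.1%) and the block without both PAC cultures of duplicate 1 (6.73%). Fits with 0 were library size alone (30.5%), donors summed (20.1%), duplicate 2 alone (0.0518%) and the fit without both PAC cultures of duplicate 1 (0.355%). In BAC, where 1 passed, 2 passed at 0.05, with DESeq2 or its size factors, donors summed with donor as a block, BAC fitted alone or both PAC cultures left out, 3 with the duplicate number as a covariate, 4 with the block, 5 with the block without BPAC donor 1 duplicate 2, 6 with the block without both PAC cultures, and 0 with limma-voom, donors summed or duplicate 2 alone. In BPAC, where 0 passed (45.0%), 2 passed at 0.05 (56.8%) and 1 with the covariate (53.2%). With the culture as the block 3 passed (54.4%), as they did in that fit without both PAC cultures (54.0%) or without BPAC donor 1 duplicate 2 (52.1%). With donors summed and donor as a block 0 passed (47.4%). For the *Braf* effect on the change, where 0 passed, 1 passed at 0.05, with the covariate or with the block, 0 with donors summed and donor as a block, and 3 with the block without BPAC donor 1 duplicate 2. For the level with 4-HT, where 9 passed (30.2%), 10 passed with the covariate (40.0%) or at 0.05 (43.7%). Either duplicate alone leaves 1 AC sample with 4-HT, and the median over the members was 0.71 in duplicate 1 and 1.115 in duplicate 2. The block cannot be used for levels and changed no call in AC or for *Trp53*.

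With 1 culture or donor left out, the counts were 0 to 2 in PAC, 0 to 3 in BAC, 0 to 1 in BPAC, 0 to 0 in AC and for both effects on the change, 0 to 1 for the level with EtOH (*Hk1* without BPAC donor 2) and 4 to 9 for the level with 4-HT. In the fit without BPAC donor 2 that called *Hk1*, 1.79% of all genes passed, against 0.0296% in the main fit. For the ratios only donors were left out, 1 at a time. Their changes were 0.68 to 0.78 for *Hk2* to *Hk1*, -0.60 to -0.56 for *Pfkp* to *Pfkl* and -0.50 to -0.17 for *Ldhb* to *Ldha*. No member past the threshold changed sign under any alternative run. The cause of these shifts was not tested.

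Over all genes, the count in AC (980) was 1581 with DESeq2, 1813 with library size alone, 2064 with the covariate, 2223 with the block, 253 with AC alone, 13 in duplicate 2, 9 without AC duplicate 1 and 24 without AC duplicate 2. In PAC (3166) it was 2036 with PAC alone, 7 in duplicate 2, 48 without both PAC cultures, 910 so with the block, 1719 and 1422 without duplicate 1 of PAC donor 1 and of PAC donor 2, and 1147 and 336 without PAC donor 1 and PAC donor 2. In BAC (5660) it was 3088 without BAC donor 1 and 2698 without BAC donor 2. In duplicate 2 it was 2838 in BAC (5660), 2997 in BPAC (6089) and 1145 for the level with 4-HT (4084). For the *Braf* effect on the change (893) it was 1449 with DESeq2, 1891 with the block, 1752 with the covariate, 515 with donors summed, 525 in duplicate 1, 32 in duplicate 2, 263 without AC duplicate 1, 347 without AC duplicate 2, 590 without BAC donor 2 duplicate 1, and 465, 569, 404 and 351 without PAC donor 1, PAC donor 2, BAC donor 1 and BAC donor 2. For the level with EtOH (4) it was 57 with DESeq2 and 242 without BPAC donor 2.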

Other observations

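Regulators of glycolysis, of which 16 of 16 were counted, moved in both directions. *Myc*, a transcription factor that raises many glycolytic genes, rose in AC (1.25), PAC (1.32), BAC (1.84) and BPAC (1.58, adjusted P = 1.3e-07 by edgeR). Without both PAC cultures of duplicate 1 it did not pass in PAC (0.79, adjusted P = 0.0311 by edgeR). In BPAC 3 regulators rose and 4 fell, a share near the 45.0% of all genes that passed there, with *Pfkfb4*, which makes the activator fructose 2,6-bisphosphate, falling most (-2.13). In the *Braf* effect on the change 1 passed, *Pdk2*, a kinase that inhibits pyruvate dehydrogenase (-0.80, adjusted P = 0.0032 by edgeR). *Pdk1*, a kinase of the same family and a HIF target, was higher with the *Braf* allele in the level with 4-HT (1.24).

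Of 7 genes of gluconeogenesis and fructose metabolism, 1 rose and 3 fell in BPAC (45.0% of all genes passed). *Pck2*, the mitochondrial phosphoenolpyruvate carboxykinase, rose (0.78) and *Khk*, which phosphorylates fructose, fell (-1.76). Both passed in the *Braf* effect on the change, with 0.64 and -0.97. Of 8 genes of the pentose phosphate pathway, 1 rose and 1 fell in BPAC, *G6pdx* (0.51), which commits glucose 6-phosphate to it, and *Taldo1* (-0.62). None of the 8 passed in the *Braf* effect on the change.

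The 5 genes whose log2 CPM followed that of *Ldhb* most closely over the 28 samples were *Arf5* (Pearson r = 0.867), *Rn7sk* (0.865), *Mtch1* (0.86), *Rab19* (0.852) and *Guca2b* (0.852). The samples share donors, duplicates and treatment, so these values are a description.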
